A study of Mus musculus with 4 samples.

Results

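Replication timing was described along an 11.4 Mb stretch of mouse chromosome 14, from 107.0 to 118.4 Mb on build mm9, that holds Slitrk1, Slitrk6, Slitrk5, Gpc5 and Gpc6. Every genomic probe whose midpoint lay in the stretch was a member, which gave 565 of the 170305 probes of the array design, 563 of them usable on all arrays. They fill 55 of the 12000 windows of 200 kb measured genome-wide. The stretch was chosen with measured timing differences of these arrays in view, so its later timing in the knockout is a description and not a finding. Gene positions are those the stretch was defined with, at 109.3 Mb for Slitrk1, 111.15 Mb for Slitrk6, 112.1 Mb for Slitrk5, 115.5 to 116.9 Mb for Gpc5 and 117.3 to 118.4 Mb for Gpc6. The probe table itself names no genes.

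The study asked how replication timing differs between wild-type and Suv4-20h knockout cells, and between non-induced and induced Suv4-20h mutant cells, all mouse embryonic fibroblasts, which are connective tissue cells grown from embryos. Newly made DNA from early and late S phase was labelled with BrdU (50 µM, 1 hour), sorted from 80000 cells, amplified and hybridised to 1 array per group, early DNA in Cy3 and late DNA in Cy5, with no dye swap. Timing here is log2 of early over late signal relative to the autosomal probe median of the same array, so a lower value means later replication. Control and KO lay on 1 slide, and non-induced and induced on another. The control group has no deletion in its labels. In the KO group the floxed Suv4-20h1 allele is deleted, and the protocol gives 4-hydroxytamoxifen (1 mM, 24 hours) as the agent. That treatment text is attached to all 4 samples, control and non-induced included, so which cells received the agent is not settled by the labels. The non-induced and induced groups are labelled as Suv4-20h mutants, and how cells were induced is not given in the sources used here. All 4 arrays carry the name of a single cell line, with a different number in different fields, and were grown at 3% O2 and 5% CO2. The arrays measure DNA, so expression of fibroblast markers could not be checked. The targeted gene was not placed on the probes, which carry coordinates but no gene names, so its deletion was not checked. With 1 array in each group there is no spread between cultures and no test between conditions, and each standard error below is over probes.

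SLITRK proteins are single-pass membrane proteins of neurons with leucine-rich repeats, and they act in neurite growth and in the formation of synapses through partners on the opposite cell. Glypicans are heparan sulfate proteoglycans tied to the outer cell surface by a lipid anchor, where they modulate growth factor and morphogen signals. Both families include long or isolated genes that lie in gene-poor DNA, which commonly replicates late in S phase in cells that do not use it. Suv4-20h enzymes add methyl groups to lysine 20 of histone H4, a mark linked to heterochromatin and to the licensing of replication origins. In the order of RefSeq on GRCm38.p6, the 5 members are the only protein-coding genes from Slitrk1 to Gpc6, with Trim52 before and Dct after them. The same order holds 13 long non-coding RNA genes and 6 microRNA genes, Mir17, Mir18, Mir19a, Mir20a, Mir19b-1 and Mir92-1, just before Gpc5. Their probes were not separated from those of the Slitrk5 to Gpc5 segment.

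The promoters of 4 of the 5 members matched the RefSeq table of GRCm38.p6. They are shown because all 3 Slitrk genes were later on the KO than on the control array while their start sites differ in base composition. Each line gives the 250 bases before the gene's start, 5′ to 3′ in the direction of the gene, with every CG in capitals. In that build they lie at chr14:108914240-108914489 (minus strand), chr14:110755150-110755399 (minus), chr14:111675777-111676026 (plus) and chr14:115091965-115092214 (plus). These coordinates are not on the scale of the mm9 probe positions. Gpc6 was not matched.
Slitrk1: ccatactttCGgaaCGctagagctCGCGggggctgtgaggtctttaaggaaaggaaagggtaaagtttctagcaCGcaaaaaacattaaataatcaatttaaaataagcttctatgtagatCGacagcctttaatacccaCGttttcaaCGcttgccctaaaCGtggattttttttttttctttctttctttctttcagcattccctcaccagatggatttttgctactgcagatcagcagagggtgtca
Slitrk6: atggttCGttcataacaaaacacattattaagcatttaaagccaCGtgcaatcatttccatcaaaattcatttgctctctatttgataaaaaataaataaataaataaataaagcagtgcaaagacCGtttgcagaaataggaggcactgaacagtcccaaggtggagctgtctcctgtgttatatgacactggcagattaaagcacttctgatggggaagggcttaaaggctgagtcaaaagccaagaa
Slitrk5: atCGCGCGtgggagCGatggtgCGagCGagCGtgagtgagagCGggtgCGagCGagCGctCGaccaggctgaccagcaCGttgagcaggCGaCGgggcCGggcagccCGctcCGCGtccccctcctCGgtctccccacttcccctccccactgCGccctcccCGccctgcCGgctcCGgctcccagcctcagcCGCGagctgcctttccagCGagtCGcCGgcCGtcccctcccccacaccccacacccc
Gpc5: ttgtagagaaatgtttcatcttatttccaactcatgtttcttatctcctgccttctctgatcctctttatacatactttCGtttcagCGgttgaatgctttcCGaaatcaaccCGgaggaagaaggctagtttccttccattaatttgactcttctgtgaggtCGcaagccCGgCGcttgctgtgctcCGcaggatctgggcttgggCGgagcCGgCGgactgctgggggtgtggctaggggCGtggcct
Counting CG, which reads the same on both strands, gave 9 in Slitrk1, 3 in Slitrk6, 30 in Slitrk5 and 12 in Gpc5. Over 32851 RefSeq promoters of the same length, 92.1% held at least 1 CG and the median was 6. At least as many were held by 40.3% of promoters for Slitrk1, by 71.0% for Slitrk6, by 5.94% for Slitrk5 and by 33.5% for Gpc5. GC content was 40.4% in Slitrk1, 37.2% in Slitrk6, 74.8% in Slitrk5 and 51.2% in Gpc5, against a median of 52.4%. Slitrk5 thus has a CpG-dense start and the other Slitrk genes do not. Their timing values are given below, and no relation between these counts and timing was tested.

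Over all 563 probes, mean timing was -0.43 ± 0.028 (SE) on the control array and -0.64 ± 0.026 on the non-induced array. It was -1.11 ± 0.029 on the KO array and -1.14 ± 0.035 on the induced array. Control was the earliest array, non-induced stood next, and KO and induced were the latest. KO minus control, called the KO difference from here on, was -0.68 ± 0.037 (SE), lower in 435 of 563 probes. Induced minus non-induced, called the induced difference, was -0.50 ± 0.030 (SE), lower in 430 of 563 probes. Between the references, non-induced minus control was -0.22 ± 0.026 (SE), across 2 slides. Induced minus KO was -0.03 ± 0.036 (SE), within 1 standard error of 0. Over 12 alternative settings of the processing it ran from -0.10 to 0.25. It joins values of opposite sign, 0.57 ± 0.11 (SE) from Slitrk1 to Slitrk6 and -0.62 ± 0.069 (SE) over Gpc6. These means join stretches that behaved differently, as the values along the chromosome show.

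**Figure D1:**
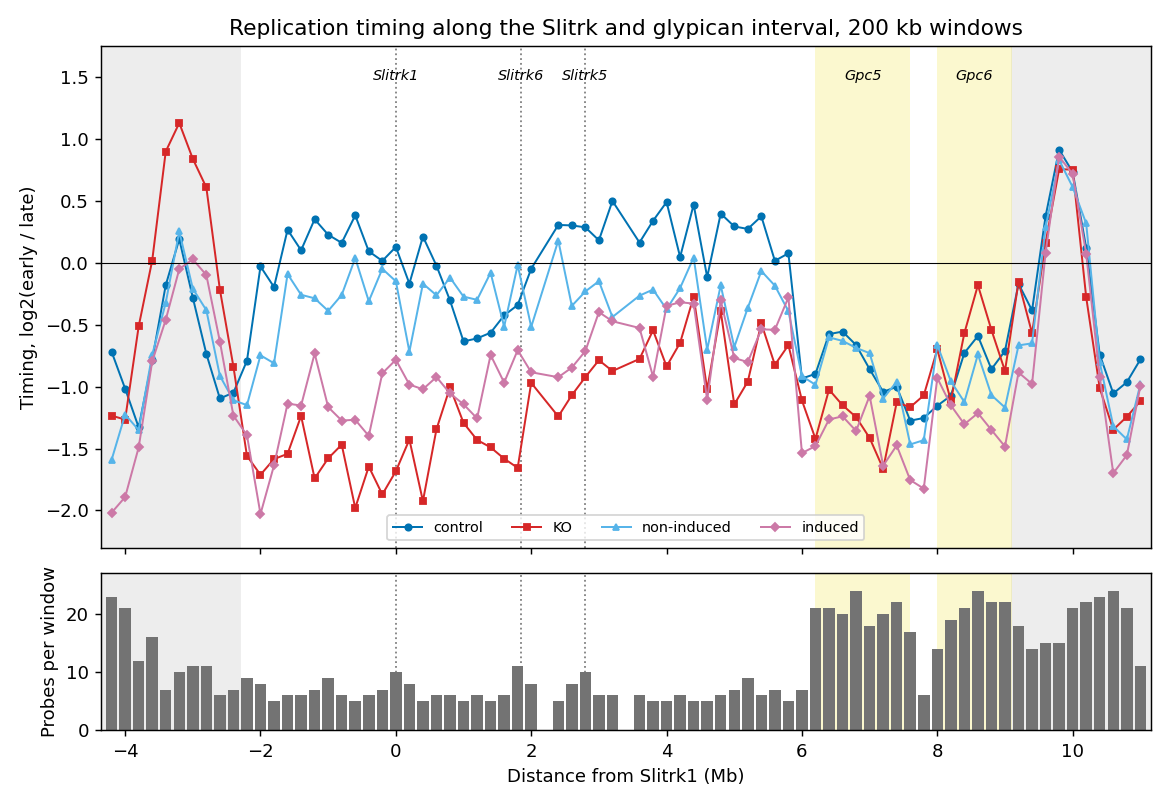
The upper panel plots timing (log2 of early over late) on the 4 arrays in windows of 200 kb against distance from Slitrk1 in Mb, and the lower panel the number of usable probes per window. Dotted lines mark the Slitrk genes, yellow bands Gpc5 and Gpc6, and grey the flanks of 2 Mb. Up to Gpc5 the control trace runs on both sides of 0 and the non-induced one mostly just below it, while KO and induced run lower, and over Gpc6 the KO trace lies above the induced one.

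The stretch was cut into 57 possible windows of 200 kb, of which 55 had at least 5 usable probes. The control array was not uniformly late: 26 of 55 windows lay above 0, with the lowest at -1.28, the median at -0.03 and the highest at 0.50. On the KO array no window lay above 0, and the lowest, median and highest were -1.98, -1.14 and -0.18. Non-induced windows ran from -1.47 through a median of -0.38 to 0.18, with 3 above 0. Induced windows ran from -2.03 through -1.05 to -0.28, with 0 above 0. All 4 ranges overlap, and control was the highest array in 40 of 55 windows while KO was the lowest in 34 and induced in 20. Over all 12000 windows the medians also lay below 0, at -0.16 (control), -0.39 (KO), -0.26 (non-induced) and -0.51 (induced). Windows of 5 to 9 probes outside the stretch had medians of -0.49, -1.02, -0.64 and -1.10, listed by array as before. The medians of the stretch were higher than these on the control and non-induced arrays. On the KO and induced arrays they were close to them.

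Calls required a difference of at least 3 standard errors over probes and of at least 0.25 of the central range of the reference array, taken from the 10th to the 90th percentile of its windows. That size threshold came to 0.45 for KO minus control and 0.52 for induced minus non-induced, which the mean induced difference of -0.50 over the stretch does not reach. KO minus control was called later in 38 of 55 windows (69.1%), where 22.2 percent of all 12000 windows were called later. It was called earlier in 1 of 55, where 8.02 percent of all windows were. The median window difference was -0.91, against -0.16 over all windows, -0.18 over the rest of chromosome 14 and -0.41 over windows of 5 to 9 probes elsewhere. Probes were sparse here, with 5 to 9 per window in 38 of 55 windows (69.1%) against 29.3% of all windows. Among windows that sparse across the genome, 34.9 percent were called later, and in the rest of chromosome 14 it was 23.8 percent. Since the stretch was chosen on this contrast, nothing is read from the share. By that rule 6 windows were called later and 2 earlier in non-induced than in control cells, against 10.8 and 8.17 percent of all windows. Between induced and KO cells it called 5 later and 3 earlier, against 12.8 and 7.05 percent.

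Induced minus non-induced was called later in 15 of 55 windows (27.3%) and earlier in 0, where 11.9 and 0.467 percent of all windows were called later and earlier. In windows of 5 to 9 probes 16.0 percent were called later, and in the rest of chromosome 14 it was 7.74 percent. The difference was below 0 in 53 of 55 windows, with a median of -0.48 against -0.13 over all windows and -0.37 over equally sparse windows elsewhere. After scaling all arrays to an equal spread of windows, 3 of 55 windows were called later in induced and 32 in KO cells. Of the windows called later in KO, 14 (36.8% of the 38) were also called later in induced cells, and these were 93.3% of the 15 called there. Over all windows the shared calls were 29.6% of the KO list and 55.0% of the induced list. The KO list covers 69.1% of the windows of the stretch, which was chosen on that contrast, and 22.2% of all windows. The shares of 93.3% and 55.0% therefore cannot be compared directly. The comparisons share no array, and whether this overlap is larger in the stretch than elsewhere was not tested.

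**Figure D2:**
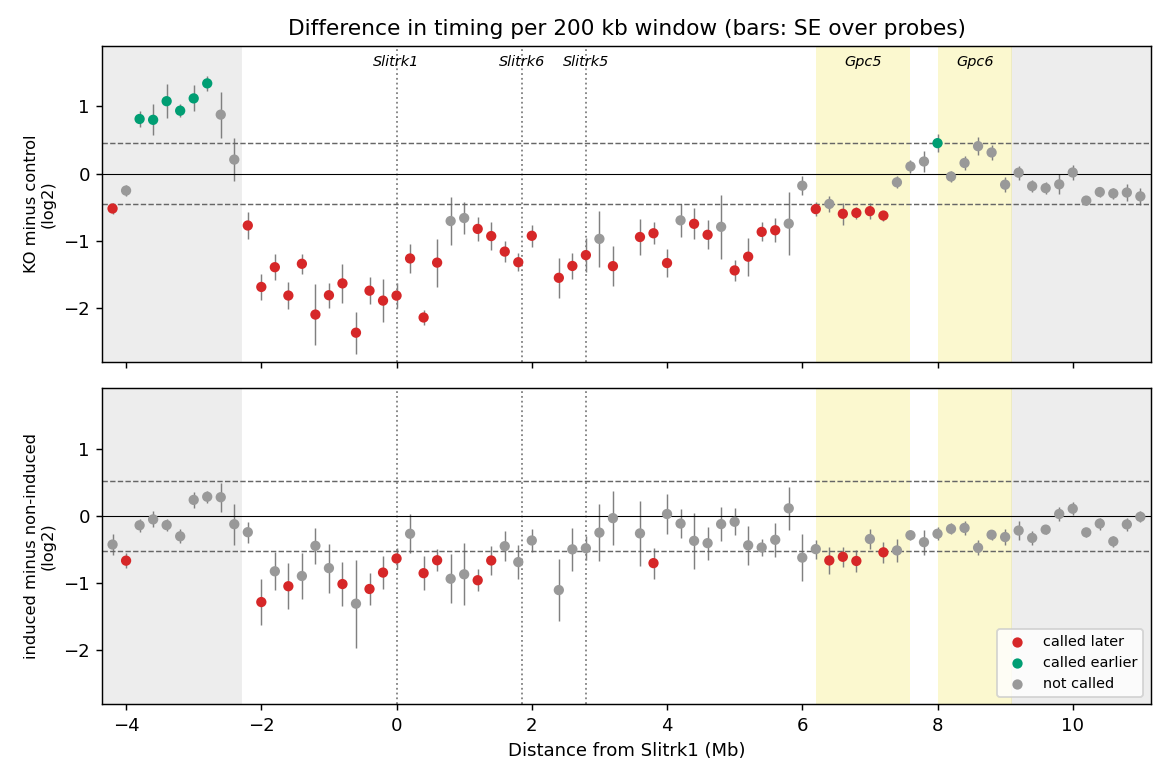
Each point is the difference in timing of 1 window of 200 kb with its standard error over probes, KO minus control above and induced minus non-induced below, against distance from Slitrk1 in Mb. Dashed lines are the size thresholds, 0.45 and 0.52, and colours show the calls. Windows called later in KO reach from the left edge into Gpc5 with uncalled ones among them, and those called later in induced cells lie mainly around Slitrk1 and inside Gpc5.

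Slitrk1 lies farthest from the glypicans. In the window that holds it, from 109.2 to 109.4 Mb, the lowest, median and highest of 10 probes were -0.39, 0.05 and 1.07 in control against -2.98, -1.69 and -0.91 in KO cells. They were -0.68, -0.12 and 0.24 in non-induced against -1.29, -0.80 and -0.16 in induced cells. No probe of the KO array reached the lowest probe of control, while non-induced and induced probes overlapped. Over 600 kb around the gene (25 probes), means were 0.0010 in control against -1.65 in KO cells, and -0.30 in non-induced against -0.88 in induced cells. The KO difference was -1.65 ± 0.14 (SE) and lower in 25 of 25 probes. The induced difference was -0.57 ± 0.13 (SE) and lower in 20 of 25 probes. It was -0.04 with normexp background correction of the raw signals, and it was called in 3 of 11 alternatives.

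Slitrk6, a relative with the same domain layout, lies 1.85 Mb further along. The window from 111.0 to 111.2 Mb had 11 probes, whose lowest, median and highest values were -0.76, -0.49 and 0.22 in control against -2.35, -1.74 and -0.84 in KO cells. In non-induced cells they were -0.96, -0.14 and 2.17, and in induced cells -2.37, -0.63 and 1.69. KO and control probes again did not overlap, whereas those of the mutant arrays overlapped over most of their range. Over 600 kb (25 probes), means were -0.27 in control against -1.42 in KO cells, and -0.30 in non-induced against -0.83 in induced cells. Here KO minus control was -1.15 ± 0.091 (SE), lower in 25 of 25 probes. Its induced difference was -0.53 ± 0.13 (SE), lower in 18 of 25 probes, -0.03 with normexp, and called in 1 of 11 alternatives. Over odd probes (-0.58 ± 0.24) and over the single window (-0.69 ± 0.25) it was at least as large and missed only the rule of 3 standard errors.

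Slitrk5 had the earliest timing of the 3 Slitrk genes on the control array. Over the 10 probes of the window from 112.0 to 112.2 Mb, the lowest, median and highest were -0.11, 0.30 and 0.54 in control against -2.69, -0.73 and 0.01 in KO cells. They were -1.07, -0.30 and 1.39 in non-induced against -1.46, -0.67 and 0.22 in induced cells. Here the ranges of control and KO overlapped slightly, and all 10 probes were lower in KO. Over 600 kb (24 probes), means were 0.26 in control against -0.94 in KO cells, and -0.25 in non-induced against -0.68 in induced cells. At this gene KO minus control was -1.20 ± 0.16 (SE), lower in 22 of 24 probes. The induced difference was -0.43 ± 0.16 (SE), which does not reach the threshold of 0.52. Non-induced minus control was -0.51 ± 0.11 (SE) at Slitrk5, so that KO minus non-induced was -0.69.

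Gpc5, whose body spans 1.4 Mb, was late on every array. Its 150 probes had means of -0.84 in control against -1.28 in KO cells, and -0.89 in non-induced against -1.43 in induced cells. Control and non-induced differed by -0.05 ± 0.044 (SE), about the size of the error. The KO difference was -0.45 ± 0.042 (SE), just under the size threshold of 0.45, and lower in 122 of 150 probes. The induced difference, -0.54 ± 0.061 (SE), passed its threshold and was lower in 113 of 150 probes. It was -0.10 with normexp and was called in 2 of 10 alternatives. Of the 7 windows of Gpc5, 5 were called later in KO and 4 in induced cells, where 22.2 and 11.9 percent of all windows were. The mean KO difference was -0.21 once arrays were scaled alike, -0.04 with quantile normalization and 0.01 once the linear trend of the difference on timing was removed, and the induced one was -0.22, -0.14 and -0.10.

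Gpc6, the neighbouring family member, was not later in KO than in control cells. Its 118 probes had means of -0.82 in control against -0.66 in KO cells, and -0.98 in non-induced against -1.28 in induced cells. KO was the earliest array here and induced the latest. Its KO difference was 0.17 ± 0.051 (SE), higher in 72 of 118 probes and under the threshold. Of its 6 windows, 1 was called earlier and 0 later, against 8.02 and 22.2 percent of all windows. The mean KO difference was 0.38 once arrays were scaled alike and 0.52 with quantile normalization, both not called. It was 0.53, past the threshold, once the linear trend on timing was removed. Induced timing was lower than non-induced in 93 of 118 probes, and 0 of 6 windows were called, where 11.9 percent of all windows were called later. The mean induced difference was -0.30 ± 0.042 (SE). That mean was 0.003, 0.08 and 0.14 under these settings.

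Ranked by control timing over these spans, Slitrk5 (0.26 ± 0.079) was earliest, followed by Slitrk1 (0.0010 ± 0.088), Slitrk6 (-0.27 ± 0.072), Gpc6 (-0.82 ± 0.038) and Gpc5 (-0.84 ± 0.037), with standard errors over probes. Gpc6 and Gpc5 did not differ beyond these errors. On the KO array the order was Gpc6 (-0.66 ± 0.059), Slitrk5 (-0.94 ± 0.15), Gpc5 (-1.28 ± 0.043), Slitrk6 (-1.42 ± 0.10) and Slitrk1 (-1.65 ± 0.11). Slitrk1 thus stood the second of 5 in control and the last in KO. Non-induced timing was -0.25 ± 0.10 at Slitrk5, -0.30 ± 0.14 at Slitrk6 and -0.30 ± 0.097 at Slitrk1, which the errors do not separate, and -0.89 ± 0.050 at Gpc5 and -0.98 ± 0.041 at Gpc6. On the induced array Slitrk5 (-0.68 ± 0.15), Slitrk6 (-0.83 ± 0.17) and Slitrk1 (-0.88 ± 0.11) again lay within their errors, ahead of Gpc6 (-1.28 ± 0.053) and Gpc5 (-1.43 ± 0.070).

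**Figure D3:**
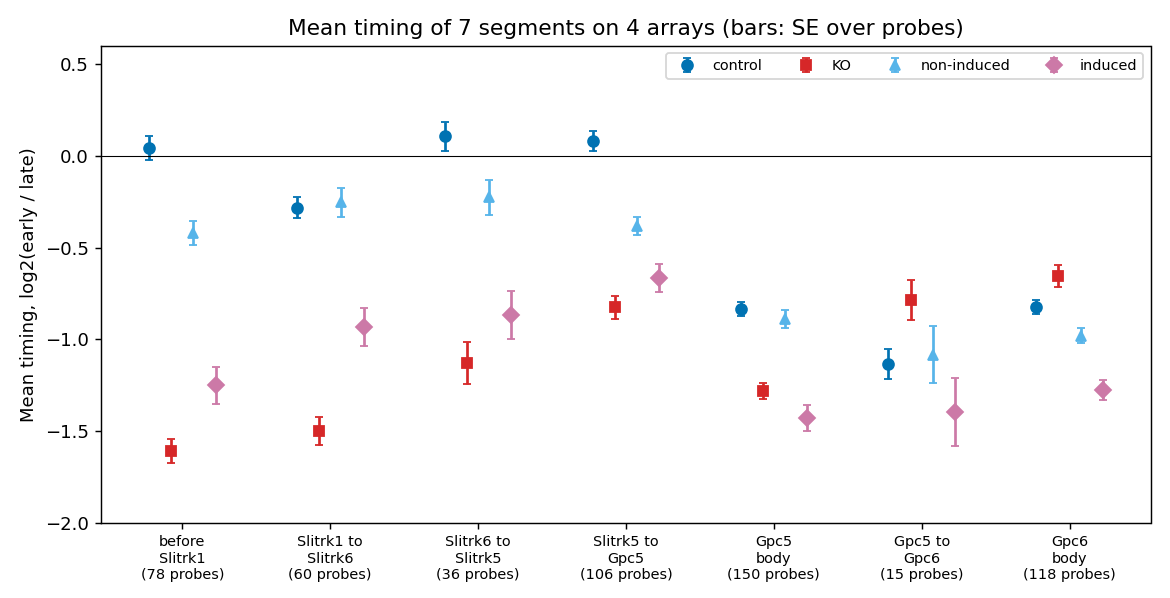
Mean timing (log2 of early over late, vertical axis) of the 7 segments between the gene positions on the 4 arrays, with standard errors over probes. Control lies at or near 0 in 3 of the 4 segments before Gpc5 and KO well below it, and in the 2 segments from the end of Gpc5 on KO is the highest array.

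Between the genes, the 78 probes before Slitrk1 had the lowest KO minus control difference of the 7 segments. Their means were 0.04 in control against -1.61 in KO cells, and -0.42 in non-induced against -1.25 in induced cells. The difference of -1.65 ± 0.084 (SE) between KO and control was negative in 77 of 78 probes, and 11 of 11 windows were called later. Across the genome, 34.9 percent of windows of 5 to 9 probes were called later in KO and 16.0 percent in induced cells. The induced difference, -0.83 ± 0.095 (SE), was lower in 65 of 78 probes, with 5 of 11 windows called later. It was -0.19 with normexp, -0.47 over probes well above background, -0.48 with the linear trend on timing removed and -0.51 with quantile normalization, none of which passed. The order of the arrays in this segment was that of the Slitrk1 span, which overlaps it from 109.0 to 109.3 Mb and shares probes with it.

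From Slitrk1 to Slitrk6 (60 probes), the means were -0.28 in control against -1.50 in KO cells and -0.25 in non-induced against -0.93 in induced cells, and 8 of 10 windows were called later in KO and 5 in induced cells. From Slitrk6 to Slitrk5 (36 probes), they were 0.11 against -1.13 and -0.23 against -0.87, and 3 of 3 windows were called later in KO and 0 in induced cells. From Slitrk5 to Gpc5 (106 probes), they were 0.08 against -0.83 and -0.38 against -0.67, with 11 of 16 windows called later in KO and 1 in induced cells. The KO difference was thus smaller after Slitrk5 than before Slitrk1, at -0.91 ± 0.069 (SE) against -1.65, and the induced difference was -0.28 ± 0.069 (SE) against -0.83. From Slitrk5 to Gpc5 the KO difference passed the size threshold in 9 of 11 alternatives. It fell short with normexp (-0.338 against 0.351) and with the non-induced array as reference (-0.441 against 0.517). Of all windows, 22.2 percent were called later in KO and 11.9 percent in induced cells. Among windows of 5 to 9 probes it was 34.9 and 16.0 percent. The KO counts follow in part from how the stretch was chosen. With normexp the induced difference was -0.05 from Slitrk1 to Slitrk6, -0.08 from there to Slitrk5 and 0.03 from Slitrk5 to Gpc5, and with arrays scaled alike it was -0.50, -0.47 and -0.14, all not called. In the 15 probes between Gpc5 and Gpc6, KO minus control was 0.35 ± 0.095 (SE) and induced minus non-induced -0.31 ± 0.098 (SE). The KO value there passed the threshold with arrays scaled alike (0.64), quantile normalization (0.82), centring on windows (0.53) and the trend removed (0.78).

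The control array had a step just before Gpc5. The window from 115.0 to 115.2 Mb stood at 0.08 and the next, from 115.2 to 115.4 Mb, at -0.93. Non-induced cells went from -0.39 to -0.92 and induced cells from -0.28 to -1.54 across the same boundary. KO cells went from -0.67 to -1.11, a smaller step than on the control array, and the 2 windows hold 5 and 7 probes. Upstream of the step the control profile stayed between -0.12 and 0.50 from 111.6 Mb on, and downstream it stayed between -1.28 and -0.56 to the end of Gpc6.

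The 3 earliest windows by the mean of the 4 arrays all lay between Slitrk5 and Gpc5, and the earliest, from 113.6 to 113.8 Mb, had 0.47 in control against -0.27 in KO cells, and 0.04 in non-induced against -0.33 in induced cells. The latest window, from 116.8 to 117.0 Mb at the end of Gpc5, had -1.28 against -1.17 and -1.47 against -1.75. The lowest KO minus control difference, -2.36 ± 0.31 (SE over 5 probes), was from 108.6 to 108.8 Mb, and the next, -2.14 ± 0.12 (SE over 5 probes) from 109.6 to 109.8 Mb, lay on the other side of Slitrk1. Of the 20 windows with the lowest KO minus control difference in the genome, 4 lay in the stretch, and of the 100 lowest, 11. The stretch holds 55 of the 12000 windows and was chosen on this contrast, so nothing is read from these counts. For induced minus non-induced, 0 of the 20 lowest and 3 of the 100 lowest lay in the stretch.

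Called windows of one direction were joined into regions where under 1 Mb lay between them. All 38 later windows of KO fell into a single region of 9.6 Mb from 107000001 to 116600000, which ranked 5th by length among 501 later regions and 10th by mean size among the 89 of at least 10 called windows. Its mean over 396 probes was -1.03 ± 0.038 (SE). Since the stretch was chosen on this contrast, nothing is read from these ranks. In induced cells the later windows formed 3 regions. That of 107200001 to 110800000, which holds Slitrk1, had 10 called windows, with uncalled ones among them. Its mean of -0.84 ± 0.073 (SE over 116 probes) was the lowest of the 15 later regions of at least 10 called windows, a number it only just reached. Nothing is read from this rank either. The region was joined from windows called on these same values, and the stretch was chosen with measured timing differences in view. Another region of 1.0 Mb inside Gpc5, from 115600001 to 116600000, had a mean of -0.58 ± 0.074 (SE over 103 probes), and the last was the window from 113.0 to 113.2 Mb. In the whole stretch 1 window was called later in induced cells with normexp, 4 with loess and 3 with arrays scaled alike. No region of 10 called windows can form under those settings.

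At the left edge, the window just inside (107.0 to 107.2 Mb) had -0.79 in control and -1.56 in KO cells, and the window just outside (106.8 to 107.0 Mb) had -1.05 and -0.84. At the right edge, the window just inside (118.2 to 118.4 Mb) had -0.71 and -0.87, and the window just outside (118.4 to 118.6 Mb) had -0.17 and -0.15. Beyond the left edge lay a region called earlier in KO, from 105400001 to 106600000, with a mean difference of 0.99 ± 0.077 (SE over 67 probes). Over the same 2 Mb flank (124 probes), KO minus control was 0.45 ± 0.078 (SE) and induced minus non-induced -0.19 ± 0.054 (SE). In the 2 Mb after Gpc6 (184 probes), these were -0.21 ± 0.033 and -0.16 ± 0.032.

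As a description of the profiles, Pearson's r over the 55 windows was 0.034 between control and KO, where it was 0.842 over all windows. Between control and non-induced it was 0.770, between non-induced and induced 0.673, between KO and induced 0.407, between control and induced 0.639 and between KO and non-induced -0.068. Over all windows, the last 4 of these pairs had 0.963, 0.870, 0.860 and 0.828. Neighbouring windows are not independent, the windows of a pair share probes and their base composition, and 2 of the pairs share a slide. The stretch was chosen on the contrast of KO with control, so nothing is read from the low r of that pair.

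**Figure D4:**
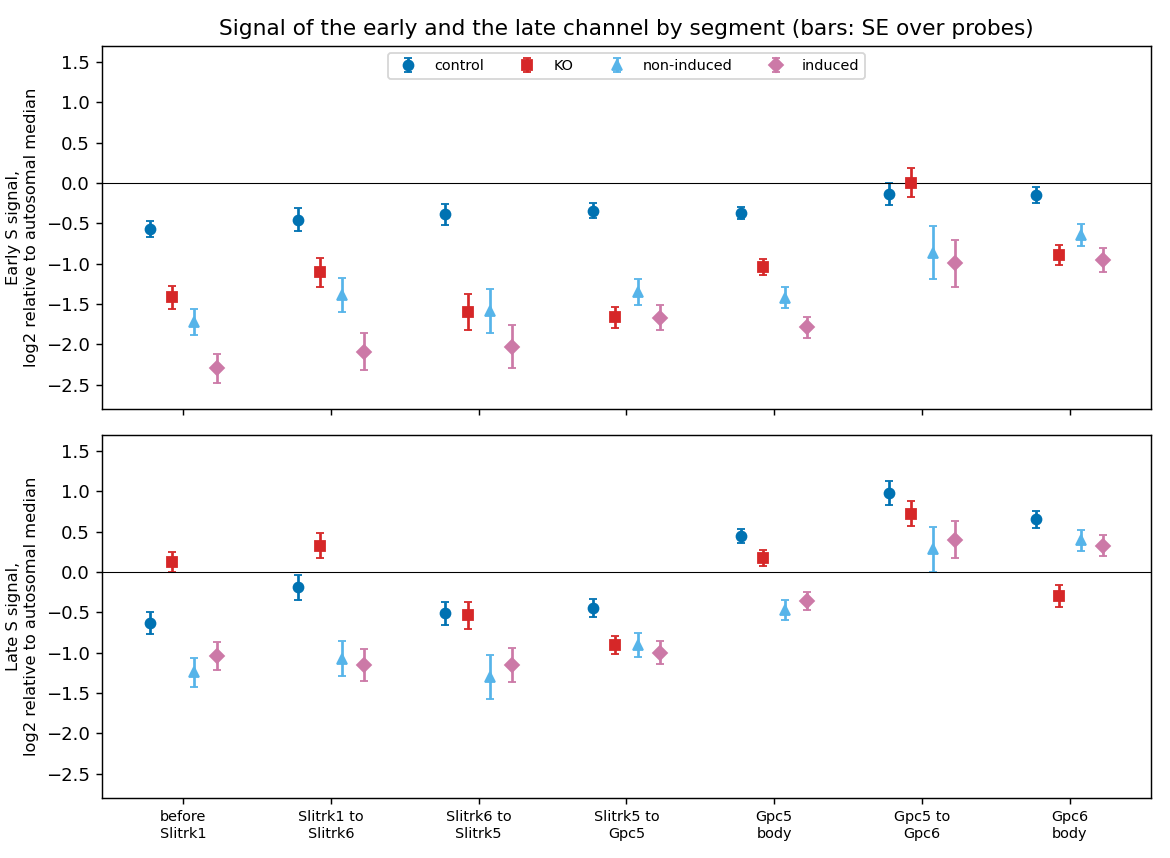
Mean signal of the early channel (above) and the late channel (below) by segment on the 4 arrays, as log2 relative to the autosomal median of that channel and array, with standard errors over probes. Before Slitrk1 the KO array is lower than control in the early channel and higher in the late one, and over Gpc6 it is lower in both.

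The ratio can be lower because early signal is lower, late signal is higher, or both. Before Slitrk1, KO minus control was -0.85 ± 0.075 (SE) in the early channel, lower in 74 of 78 probes, and 0.76 ± 0.045 (SE) in the late channel, lower in 1 of 78. Around Slitrk1 these were -0.62 ± 0.13 and 0.99 ± 0.11, and late signal was lower in 0 of 25 probes. At Slitrk6 they were -1.02 ± 0.11 and 0.08 ± 0.085, and at Slitrk5 -1.31 ± 0.17 and -0.16 ± 0.10. So at Slitrk1 both channels differed in opposite directions, while at Slitrk6 and Slitrk5 the early channel differed and the late one lay within 2 standard errors of no difference.

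At Gpc5 both channels were lower in KO, early signal by -0.67 ± 0.050 (SE) and late signal by -0.27 ± 0.039 (SE). At Gpc6 they were lower by -0.74 ± 0.065 in the early and -0.95 ± 0.071 in the late channel, so that the ratio differed little although both signals did. From Slitrk5 to Gpc5, early signal differed by -1.32 ± 0.061 (SE) and late signal by -0.46 ± 0.045 (SE). In induced cells, early signal differed from non-induced by -0.61 ± 0.15 at Slitrk1, -0.42 ± 0.11 at Slitrk6, -0.30 ± 0.11 at Slitrk5, -0.37 ± 0.056 at Gpc5 and -0.31 ± 0.042 at Gpc6. Late signal differed by -0.09 ± 0.12, 0.05 ± 0.098, 0.07 ± 0.13, 0.11 ± 0.038 and -0.07 ± 0.032 in the same order. Across the slides both channels differed, with non-induced minus control over the stretch at -0.93 ± 0.042 (SE) in the early and -0.63 ± 0.042 (SE) in the late channel.

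Early signal was close to background for part of the probes. It was well above it for 99.3% of the stretch's probes in control and 88.8% in KO cells, against 98.5 and 95.3% on the autosomes. In non-induced cells this was 85.4% and in induced cells 63.1%, against 96.0 and 90.2% on the autosomes. Before Slitrk1 the induced array had 46.2%. Over probes well above background in both channels on all arrays, KO minus control was -1.29 at Slitrk1, -0.98 at Slitrk6, -0.78 at Slitrk5, -0.37 at Gpc5 and 0.08 at Gpc6. The induced difference over these probes was -0.42, -0.34, -0.37, -0.36 and -0.28 in the same order. With normexp background correction of the raw signals, KO minus control over the whole stretch was -0.30 and induced minus non-induced -0.07. Apart from these settings, the part of low early signal in the differences was not tested.

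The KO array differed from the others beyond chromosome 14. Of 122 probes on chromosome Y, 106 were well above background in both channels on the KO array against 41 to 53 on the others, and the median signal of X probes was -0.91 against -0.47 to -0.38. A different origin of the KO cells and the deletion cannot be told apart here. With the non-induced array as the reference instead, which lies on another slide, KO timing was lower by -1.35 at Slitrk1, -1.12 at Slitrk6, -0.69 at Slitrk5 and -0.40 at Gpc5, and higher by 0.33 at Gpc6. The direction at each gene was thus the same against both references. Both differences use the same KO array, so this does not bear on the origin of the KO cells. With the non-induced reference the values at Gpc5 and Gpc6 did not reach the size threshold of 0.517.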

How the data were processed

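The 5 member genes, the stretch and the lists were chosen with earlier results of these data known. Scanning used Agilent Feature Extraction 11.5.1.1 and probe positions on mm9, per the file headers, while version 9.1 stands in the submitters' processing notes. The deposited processed intensity of either channel was background-subtracted, detrended and multiplied by 1 dye factor, per the file headers. Deposited spot flags hold 0 or 1. The deposited log10 ratio (late over early) equalled that of the deposited value table in all 180880 spots per array.

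From these, log2 of early over late was computed without flagged spots (154 to 447 per array). Repeated spots were averaged per probe, and the autosomal probe median was subtracted on every array, with no loess or quantile step. Probes in the stretch had a median spacing of 15175 bp. Means were taken over probes, windows of 200 kb and segments between the given gene positions. The size threshold was recomputed from the reference array in each alternative. Named were all members and, of the windows, the 3 earliest, latest and most different. The files pair probes with coordinates alone, so the listed relatives and partners of the members (Slitrk2 to Slitrk4, Gpc1 to Gpc4, the synaptic and heparan sulfate lists), the genes most like the members, the qPCR loci of the protocol and the targeted gene were not analysed here, nor was GC content of the probes. The number of arrays limits the precision. Alternatives covered background correction, normalization, centring, dim probes, probe subsets, windows, thresholds and edges, and, chosen after seeing the data, the non-induced array as reference for KO. Python 3.11.15, numpy 2.4.6, pandas 2.3.3, matplotlib 3.10.9, R 4.3.3 and limma 3.58.1 were used.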

Additional observations from a re-analysis of the deposited data

Results flagged for a closer look

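The signs of the 2 comparisons were opposite in 3 stretches, a difference that was not tested and rests on 1 array per group. Between Gpc5 and Gpc6, KO minus control was 0.35 and induced minus non-induced -0.31. Over Gpc6 itself, the gene of a cell surface proteoglycan, these were 0.17 and -0.30. In the 2 Mb before the stretch, they were 0.45 and -0.19. Once all arrays had an equal spread of windows, the induced difference was 0.017 between Gpc5 and Gpc6 and 0.003 over Gpc6, so that the opposite signs were lost there. Under the same scaling the KO difference was 0.64 and 0.38, and the former then passed the size threshold.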

How the results depend on the processing

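Mean KO minus control over the stretch was -0.68 and stayed below 0 in all settings, but missed the size threshold, recomputed in each setting, with normexp on raw signals (-0.302 against 0.351), arrays scaled to the same spread (-0.543 against 0.556), quantile normalization (-0.416 against 0.559), its linear trend on timing taken out (-0.313 against 0.453) and the non-induced reference (-0.467 against 0.517). Induced minus non-induced (-0.50) was itself under its threshold of 0.517. It was -0.07 with normexp, -0.129 with the trend removed, -0.179 with quantile normalization, -0.247 with scaling, -0.292 with loess and -0.294 with centring on windows, and passed over even probes (-0.54) and with edges 1 Mb inwards (-0.52). Windows called later in KO (38) numbered 11 of 24 windows left with probes well above background, 6 of 19 with odd and 9 of 18 with even probes, 17 of 37 at 100 kb, 22 of 28 at 400 kb, 8 of 17 with at least 10 probes and 25 with the non-induced reference. Windows called earlier in KO (1) numbered 3 with normexp, 2 with loess, 5 with quantile normalization, 3 with centring on windows, 6 with the trend removed, 2 with the size threshold cut by a factor of 2 and 3 with the non-induced reference, and 0 with probes well above background, odd probes, 100 kb, 400 kb and 2 times the threshold. Windows called later in induced cells (15) numbered 1 with normexp, 4 with loess, 3 with scaling, quantile normalization, centring on windows, probes well above background and 2 times the threshold, 2 with odd probes, even probes and the trend removed, 6 at 100 kb, 5 with at least 10 probes and 24 with no standard error rule. Array means in the order control, KO, non-induced, induced were -0.361, -0.663, -0.341 and -0.41 with normexp; -0.297, -0.797, -0.441 and -0.735 with centring on windows; -0.591, -1.007, -0.724 and -0.903 with quantile normalization; -0.356, -1.198, -0.548 and -1.068 with edges 1 Mb inwards and -0.343, -0.849, -0.537 and -0.948 outwards. Those of KO, non-induced and induced were -0.998, -0.564 and -0.856 with loess, those of control, KO and non-induced -0.576, -1.026 and -0.748 over probes well above background, and those of control and induced -0.523 and -0.938 with scaling. At the Slitrk genes the KO difference stayed past the threshold in 12 of 12 alternatives each, at -1.825 to -1.135 for Slitrk1, -1.314 to -0.671 for Slitrk6 and -1.285 to -0.589 for Slitrk5. Over all genes, segments and array pairs, 172 values kept their direction and side of the threshold, 46 no longer passed it, 6 newly passed it and 16 moved by more than their error or changed sign without passing it. Fewer windows with enough probes were left with smaller windows, 10 probes and probe subsets; the cause of the other shifts was not tested. No paired analysis was possible because each group has 1 array.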
